A study of Mus musculus with 12 samples.

Results

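The genes described here encode oxidative phosphorylation: the subunits of respiratory complexes I to IV and of the ATP synthase (complex V), with the Ndufaf assembly factors of complex I. They were chosen by name and biotype. A protein-coding row was taken where its symbol began with mt-Nd, mt-Co, mt-Cytb, mt-Atp, Nduf, Uqcr, Cox4 to Cox8 or Atp5, or was Sdha to Sdhd, and where its mean over the 12 libraries was at least 1 FPKM (fragments per kilobase of gene length per 1000000 assigned reads). Of 56941 genes in the table, 110 matched the names and 106 reached that level, 13 encoded in the mitochondrial genome and 93 in the nucleus. Complex I had 7 mitochondrial and 37 nuclear members, complex II 4 nuclear members, complex III 1 and 8, complex IV 3 and 17, and complex V 2 and 18. The remaining 9 were Ndufaf1 to Ndufaf8 and Cox5b-ps, a copy of Cox5b that the table lists as protein coding. Symbol Atp5o stands on 2 rows, ENSMUSG00000022956 and ENSMUSG00000116933, which were kept apart.

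The respiratory chain passes electrons from NADH (through complex I) and from succinate (through complex II) to ubiquinone, then through complex III, cytochrome c and complex IV to oxygen, and the proton gradient that results drives the ATP synthase. Mitochondrial DNA is transcribed from both strands into long precursors that are cut at tRNAs, and its protein genes encode hydrophobic core subunits only, so every complex except complex II is assembled from the products of both genomes. Astrocytes are known for strong glycolysis and release of lactate, and they respire as well.

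The libraries came from adult naive male mice. Astrocytes of the hippocampus were sorted by fluorescence with the surface antigen ACSA-2, RNA and cDNA were made with the SMART-Seq V4 kit for very small inputs, and libraries were sequenced on an Illumina HiSeq as paired reads of 125 bases. The Ctrl group carried the floxed gene alone (Tnfrsf1b fl/fl), and the cKO group carried GfapcreERT2:Tnfrsf1b fl/fl, the same floxed alleles plus CreERT2, a recombinase that tamoxifen switches on, driven by the Gfap promoter to remove the TNF receptor TNFR2 from astrocytes. Both groups share the floxed alleles, and recombination is limited to cells in which the Gfap promoter is active. Each group has 3 A numbers (A1, A2 and A8 in Ctrl, A4, A9 and A10 in cKO) with a library S1 and a library S2 each. The labels define neither A nor S, and whether an A number is 1 animal or a pool is not given. For the genotypes, S1 and S2 were averaged, which leaves 3 units per group, and the p-values measure the spread between these units only. The comparison of S2 with S1 used the 12 libraries, and its p-values measure the spread of S2 minus S1 between A numbers.

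Depth, read back from how low FPKM values step, ran from 17311872 to 35323321 reads, and 82.8% to 86.3% of the genes above 0 came out at whole reads within 0.01. Tnfrsf1b was at or near 0 in both groups (at most 0.14 FPKM in a unit, in A4, labelled cKO), so it did not check the labels. The 12 astrocyte markers summed to 4713 to 5718 FPKM in the Ctrl units and 5414 to 6209 in the cKO units. Their mean log2(FPKM + 1) did not overlap, with 7.84 to 8.07 in Ctrl and 8.11 to 8.23 in cKO, and 10 of the 12 had a log2 difference above 0, the direction of most members described below; their part in it was not tested. The 12 oligodendrocyte markers summed to 1094 to 2362 FPKM in the Ctrl units and 313 to 753 in the cKO units, and 12 of 12 had a lower mean in cKO. Oligodendrocyte precursor markers (4 of 5 tested) summed to 127 to 163 FPKM in the Ctrl and 76.5 to 104 FPKM in the cKO units. Of the microglial markers 2 of 6 reached the minimum and summed to 2.91 to 4.08 FPKM in Ctrl and 5.60 to 12.7 FPKM in cKO, and of the neuronal markers 2 of 8, with 6.34 to 10.3 FPKM and 5.53 to 6.36 FPKM. The part of these cells in the results was not tested. In bulk samples such as these, fewer cells of a type and less RNA per cell cannot be told apart.

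The mouse nuclear genome holds a near-identical copy of part of the mitochondrial chromosome, on the minus strand of chromosome 1, and it bears on how 8 of the 13 mitochondrial members were counted. The table lists the copy as separate genes. The first 120 bases of mt-Co2, which encodes a catalytic subunit of complex IV that takes electrons from cytochrome c, are shown beside those of Gm28661 (transcripts of GENCODE M21, GRCm38), because not a single base separates them:
mt-Co2: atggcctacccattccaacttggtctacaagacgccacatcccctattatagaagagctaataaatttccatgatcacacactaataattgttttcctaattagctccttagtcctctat
Gm28661: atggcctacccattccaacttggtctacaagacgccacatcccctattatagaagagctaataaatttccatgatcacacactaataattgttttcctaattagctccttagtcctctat
The whole 681 aligned bases of this pair were identical, as were 678 bases of mt-Atp6 and Gm10925, 783 of mt-Co3 and Gm28437, 342 of mt-Nd3 and Gm28438, 294 of mt-Nd4l and Gm10222 and 876 of mt-Nd4 and Gm28439. Only mt-Co1 differed from its copy Gm29216 within the aligned part, by A1066T (the mitochondrial base first, the position counted from 1 at the start of mt-Co1). The end of the copied stretch runs through mt-Co1, as 60 bases from position 1054 of mt-Co1 and from position 1 of Gm29216 show, where capitals mark the 6 bases that differ:
mt-Co1: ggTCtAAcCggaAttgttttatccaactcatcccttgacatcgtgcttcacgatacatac
Gm29216: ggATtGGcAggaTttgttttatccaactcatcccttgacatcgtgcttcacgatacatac
In the deposited coordinates, whose build the table does not name, the copies lie on chromosome 1 from 24650616 (the start of Gm28439) to 24655278 (the end of Gm29216).

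A read of 125 bases that falls wholly in such identical sequence cannot be placed on either locus by its own sequence. Its mate can place the pair where it falls outside, and the window shares below treat each read alone. The share of 125-base windows that also occur in a transcript of another gene was 99.8% for mt-Co3, 99.5% for mt-Co2 and for mt-Atp6, 98.3% for mt-Nd4l and 97.3% for mt-Nd3. It was 60.0% for mt-Nd4, 26.7% for mt-Co1 and 0.547% for mt-Nd2, and 0% for mt-Nd1, mt-Nd5, mt-Nd6, mt-Cytb and mt-Atp8. mt-Atp8 (chromosome MT, start 7766, end 7969) lies between mt-Co2 and mt-Atp6, inside the copied stretch, but its counterpart on chromosome 1 is no annotated transcript, so its 0% says nothing of its sequence there. Below, the copied genes are mt-Co2, mt-Co3, mt-Atp6, mt-Atp8, mt-Nd3 and mt-Nd4l, and their values are uncertain. mt-Nd4 and mt-Co1 are copied in part and are not counted among them, but their values are uncertain as well.

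The mitochondrial mRNAs other than the copied genes were among the most abundant transcripts of the sorted astrocytes. Of these, mt-Co1 and mt-Nd4 are copied in part. mt-Co1 (ENSMUSG00000064351, chromosome MT, start 5328, end 6872), the subunit of complex IV in which oxygen is reduced, averaged 12282 FPKM and ranked 1 of the protein-coding genes tested. mt-Cytb (start 14145, end 15288), the cytochrome b of complex III, averaged 7103 FPKM and ranked 2. The complex I genes mt-Nd6, mt-Nd2, mt-Nd1, mt-Nd5 and mt-Nd4, which encode the proton-pumping membrane arm, averaged 6948, 6426, 5120, 4551 and 3159 FPKM, in that order, and took ranks 3 to 7. mt-Nd6 (start 13552, end 14070) lies on the opposite strand from the other 12 and its last bases overlap mt-Nd5 (start 11742, end 13565). The strand setting of the authors' counting is not given in the sources used here, so its level can include reads of the other strand.

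The copied genes stood far below. mt-Nd3 averaged 723 FPKM, mt-Atp8 89.0, mt-Nd4l 77.7, mt-Atp6 59.2, mt-Co2 30.6 and mt-Co3 24.1 FPKM. Their median was 68.4 FPKM (n = 6 genes), against 6426 FPKM for the other 7. For 3 of them the levels were close to those of the copies: Gm28661 averaged 36.1 FPKM beside mt-Co2, Gm10925 64.8 FPKM beside mt-Atp6 and Gm28437 22.1 FPKM beside mt-Co3. The other pairs differed more: mt-Nd4l had 77.7 FPKM beside 43.2 for Gm10222, mt-Nd3 had 723 FPKM beside 16.7 for Gm28438, and mt-Nd4 had 3159 FPKM beside 30.9 for Gm28439. How the authors' counting treated reads that fit several places is not given in the sources used here, and the part it plays in these levels was not tested.

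**Figure D1:**
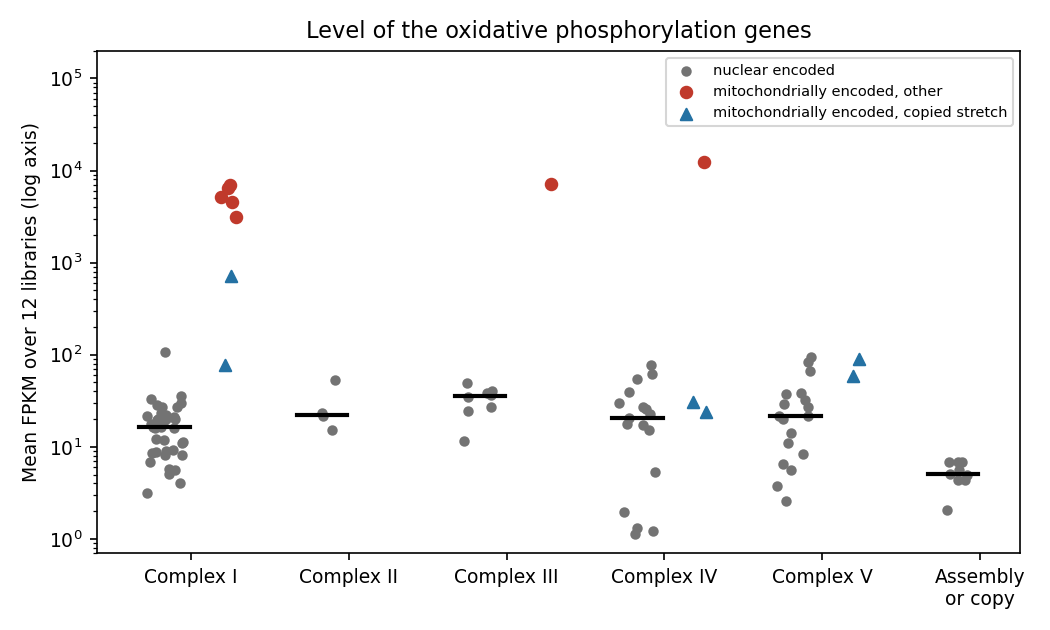
Mean FPKM over the 12 libraries (log axis) of each of the 106 genes by complex; grey points are nuclear encoded, red points mitochondrially encoded and blue triangles the mitochondrial genes of the copied stretch, and black bars are the medians of the nuclear encoded genes. The red points sit from 3159 to 12282 FPKM, and the blue triangles of complexes IV and V sit among the nuclear encoded genes.

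The 2 libraries of an A number served as a second look at the same units. Of the members, 7 were higher in S2 than in S1 and 1 was lower at a limma adjusted p under 0.05 with the A number as a block, against 1.12% of all 17586 genes tested that were higher and 0.262% that were lower. The 7 were mt-Co3, mt-Atp6, mt-Atp8, mt-Co2, mt-Nd4l, mt-Nd4 and Atp5o (ENSMUSG00000116933). By FPKM, S2 was 1.76 times S1 for mt-Co3, 1.72 times for mt-Atp6, 1.69 times for mt-Atp8, 1.66 times for mt-Co2 and 1.22 times for mt-Nd4l. The copies on chromosome 1 were higher in S2 as well, by 2.12 to 2.61 times, and each was higher in 6 of 6 A numbers. The copied gene mt-Nd3 did not take part: its ratio was 1.02 (limma adjusted p = 0.586, higher in 5 of 6 A numbers). The genes with under 1% of shared windows, other than mt-Atp8, had ratios of 0.986 to 1.01, and mt-Co1 and mt-Nd4, which are copied in part, had 0.996 and 1.02.

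For most of the copied genes the shift ran the same way in every A number. For mt-Co3, S2 minus S1 on the log2(FPKM + 1) scale was 0.79 in A1, 0.84 in A2, 0.84 in A8, 0.92 in A4, 0.72 in A9 and 0.60 in A10, a mean of 0.79. For mt-Co2 it was 0.77, 0.65 and 0.69 in A1, A2 and A8 and 0.88, 0.77 and 0.53 in A4, A9 and A10. No A number had a difference at or below 0 for mt-Co2, mt-Co3, mt-Atp6, mt-Atp8 or mt-Nd4l, whereas mt-Nd3 had -0.05 in A9. For mt-Nd4l the differences were 0.31, 0.13 and 0.12 in A1, A2 and A8 and 0.41, 0.36 and 0.36 in A4, A9 and A10, and the genotypes did not overlap. In the test of that interaction, which was added after the data were seen, the smallest limma adjusted p of a member was 0.952 (for mt-Nd4l), 2 members (Ndufb1 and Cox7b2) had an unadjusted p under 0.05, and over all genes 0 passed and 881 (5.01%) had an unadjusted p under 0.05. mt-Nd4 shifted by only 0.03. The S2 libraries were deeper than the S1 libraries, and the part of depth in the shift was not tested.

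**Figure D2:**
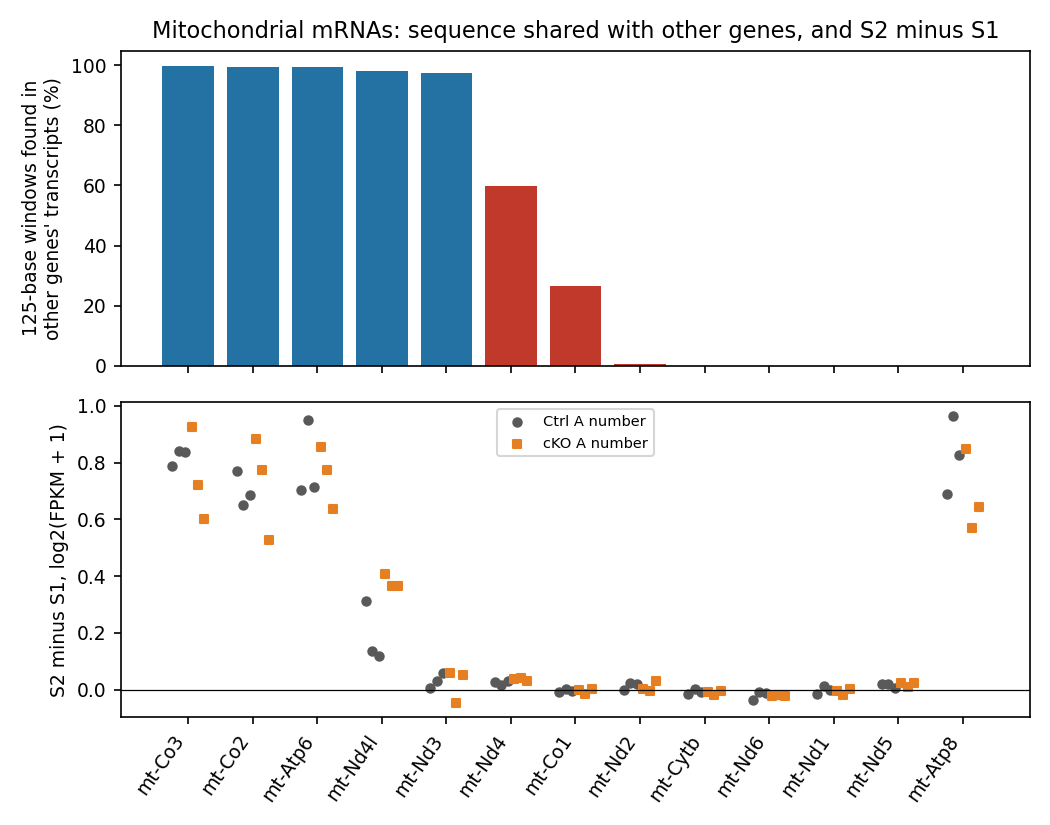
Upper panel: share (%) of the 125-base windows of each mitochondrial mRNA that also occur in transcripts of another gene (blue, copied stretch; red, other). Lower panel: S2 minus S1 on the log2(FPKM + 1) scale in each A number, grey circles Ctrl and orange squares cKO; mt-Co3, mt-Co2, mt-Atp6 and mt-Atp8 lie above 0.5 in all 6 A numbers, while mt-Cytb and mt-Co1 lie within 0.03 of 0.

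The nuclear members that differed between S1 and S2 were Atp5o and Ndufc2. Atp5o (ENSMUSG00000116933), a row for a subunit of the peripheral stalk of the ATP synthase, was higher in S2 by 0.30 on the log2 scale (limma adjusted p = 0.00146, higher in 6 of 6 A numbers), and 69.5% of its 125-base windows occur in transcripts of other genes, with Donson sharing the most. Ndufc2, an accessory subunit of complex I, was lower in S2 by a log2 difference of -0.16 (limma adjusted p = 0.0270, lower in 6 of 6). The other 91 nuclear members did not pass, and S2 over S1 ranged from 0.813 to 1.33 over all 93.

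The next comparison sets the mitochondrially encoded subunits of each complex against its nuclear encoded ones, as the difference between the mean log2(FPKM + 1) of either side in each unit. It is a description of levels per length, with no test. In complex I the mitochondrial side was higher by 7.09 ± 0.19 (SD, n = 6 units) on the log2 scale, with values of 6.92, 6.83 and 7.35 in A1, A2 and A8 and 7.09, 7.18 and 7.17 in A4, A9 and A10. In complex III, mt-Cytb stood 7.82 ± 0.13 above the mean of the 8 nuclear members, with 7.67, 7.66 and 7.93 in the Ctrl units and 7.84, 7.92 and 7.92 in the cKO units. In both complexes A8 had the highest value, above every cKO unit, while A1 and A2 had the lowest.

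In complexes IV and V the difference was smaller, and there it rests on the copied genes. Complex IV had 3.84 ± 0.13 (SD, n = 6 units), with 3.78, 3.70 and 4.04 in the Ctrl units and 3.73, 3.88 and 3.91 in the cKO units. With mt-Co1 alone on the mitochondrial side, itself copied in part, it was 9.72 ± 0.12. Complex V had 1.81 ± 0.21, with 1.79, 1.54 and 2.05 in the Ctrl units and 1.59, 1.97 and 1.93 in the cKO units, and both of its mitochondrial genes are copied genes, so no value without them exists. These values turn on how members are combined: with the log2 of summed FPKM complex V had -1.88, the nuclear side being higher, and with medians complex IV had 0.55. Without mt-Nd3 and mt-Nd4l, complex I had 8.35 ± 0.18, with mt-Nd4, which is copied in part, still included. The difference cKO minus Ctrl was 0.11 in complex I, 0.14 in complex III, -0.00 in complex IV and 0.04 in complex V. Each was smaller than the SD over the 3 Ctrl units (0.28, 0.16, 0.18 and 0.25). The SD over the 3 cKO units was 0.05, 0.05, 0.10 and 0.21, and the differences in complexes I and III were larger than that.

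**Figure D3:**
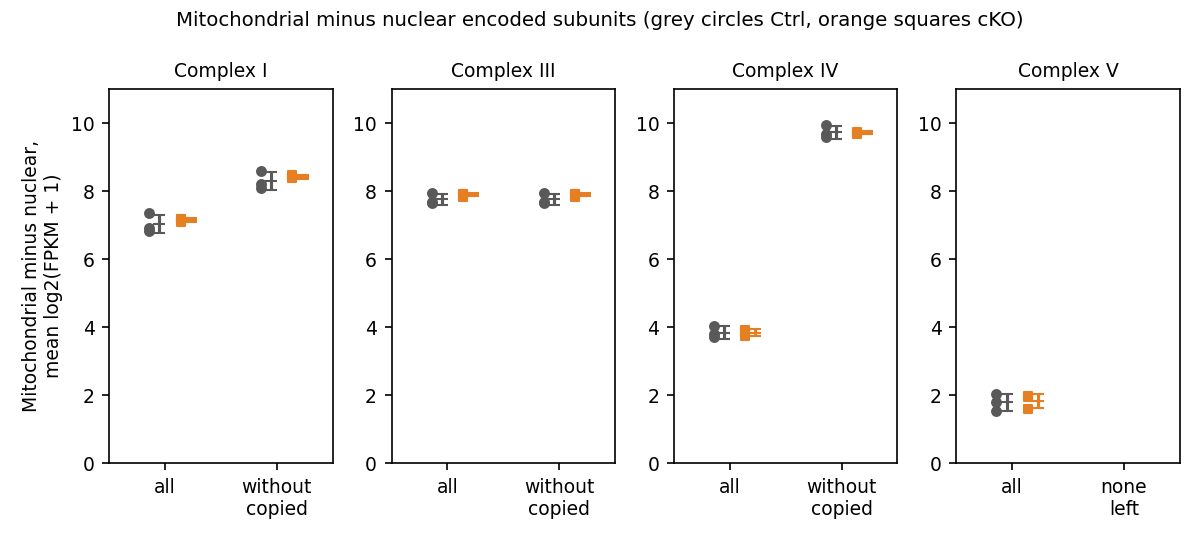
Mean log2(FPKM + 1) of the mitochondrially encoded minus that of the nuclear encoded subunits of each complex in each unit, with all genes and without the copied genes; bars show the mean ± SD of 3 units (grey circles Ctrl, orange squares cKO). Leaving the copied genes out moves complex IV from 3.84 to 9.72, and leaves no mitochondrial gene in complex V.

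The same balance can be read as a share of the reads. The mitochondrial mRNAs took 4.74%, 4.90% and 6.14% of the assigned reads in A1, A2 and A8 and 5.88%, 5.99% and 5.52% in A4, A9 and A10. These shares include the copied genes, whose values are uncertain. The copied genes summed to 1004 FPKM, against 45589 FPKM for the other 7 mitochondrial mRNAs. The 93 nuclear members together took 0.345%, 0.388% and 0.359% in the Ctrl units and 0.389%, 0.389% and 0.359% in the cKO units. The mitochondrial share averaged 5.26% ± 0.766 over the Ctrl and 5.80% ± 0.245 over the cKO units (SD, n = 3 each), and A8 exceeded every cKO unit. The mitochondrial ribosomal RNAs took 3.13% ± 0.147 in Ctrl and 3.61% ± 0.288 in cKO, and there the groups did not overlap, with 3.29% as the highest Ctrl and 3.31% as the lowest cKO unit.

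Among the nuclear encoded subunits of complex I, levels ran from 3.12 to 107 FPKM with a median of 16.3 FPKM. The 7 core subunits, which carry the flavin and the iron-sulfur clusters of the peripheral arm, had a median of 20.1 FPKM, with Ndufv2 at 22.4, Ndufv1 at 20.0 and Ndufs1 at 11.9 FPKM among them. The 30 accessory subunits, which surround the core, had a median of 14.1 FPKM. Ndufc2 (ENSMUSG00000030647, chromosome 7, start 97049210, end 97057009) was the highest nuclear member, with 73.7, 78.5 and 128 FPKM in A1, A2 and A8 and 135, 125 and 103 FPKM in A4, A9 and A10. The next accessory subunits, Ndufb10 (35.8 FPKM), Ndufb11 (32.9) and Ndufa12 (30.1), came well after it, and Ndufb2 was the lowest (3.12 FPKM).

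Deposited length bears on these ranks, since FPKM divides by the union of a gene's exons. In 17 nuclear members that length was at least 3 times the median length of the gene's coding transcripts in GENCODE M21, the highest ratio being 11.8 for Atp5l (6443 against 544 bases). For Ndufb5 the ratio was 7.99, for Ndufb7 7.26 and for Atp5md 7.61. The median ratio was 1.66. A member with a high ratio has a lower FPKM than its main transcript would have, so low ranks of Atp5l (3.75 FPKM), Ndufb7 (5.65 FPKM) or Atp5md (5.60 FPKM) are uncertain.

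Complex II, the succinate dehydrogenase that also serves the citric acid cycle, was led by Sdha, its flavoprotein, with 51.8, 55.1 and 59.2 FPKM in the Ctrl units and 50.5, 49.7 and 48.7 FPKM in the cKO units. Its iron-sulfur subunit Sdhb averaged 21.6 FPKM, and the membrane anchors Sdhd and Sdhc averaged 23.1 and 15.2 FPKM. Sdha was the highest of the 4 in every unit, although the complex holds its subunits in equal number.

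The nuclear members of complex III had the highest median, 35.4 FPKM, and a narrow range from 11.7 to 49.6 FPKM. Uqcrfs1, the Rieske iron-sulfur protein that hands electrons to cytochrome c1, was the highest with 49.6 FPKM. The accessory subunits Uqcrh, Uqcr10, Uqcrb and Uqcr11 followed with 40.4, 38.0, 36.3 and 34.4 FPKM, and the matrix-side core proteins Uqcrc2 and Uqcrc1 with 26.8 and 24.4 FPKM. Uqcrc2 was among the steadiest members, with 25.9, 25.8 and 27.9 FPKM in the Ctrl units and 26.2, 26.2 and 28.8 FPKM in the cKO units. Uqcrq was the lowest at 11.7 FPKM, with a deposited length 3.63 times its coding transcript.

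Complex IV is the complex with tissue isoforms, and in these astrocytes the widespread isoform was the higher of each pair. Cox4i1, a regulatory subunit, averaged 54.6 FPKM against 1.97 for its hypoxia-linked partner Cox4i2. Cox6a1 averaged 62.2 FPKM, and the heart and muscle form Cox6a2 was under the minimum at 0.0422 FPKM. Cox7a2 averaged 26.8 FPKM and Cox7a2l, which takes part in joining complexes III and IV into supercomplexes, 17.4 FPKM, against 1.30 FPKM for the heart and muscle form Cox7a1. Cox8a averaged 77.0 FPKM, the highest nuclear member of the complex, against 0.434 for Cox8b and 0 for Cox8c. Cox6b1 averaged 39.6 FPKM and the testis form Cox6b2 5.37 FPKM. Ndufa4, first assigned to complex I and now counted with complex IV, averaged 30.1 FPKM and its homologue Ndufa4l2 1.23 FPKM.

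Some of the lower isoforms varied widely between units. Cox4i2 had 5.23, 4.07 and 0 FPKM in A1, A2 and A8 and 0.81, 0.19 and 1.50 FPKM in A4, A9 and A10. Cox6b2 had 1.45, 1.73 and 12.1 FPKM in A1, A2 and A8 and 4.99, 7.34 and 4.62 FPKM in A4, A9 and A10. The SD over the 6 units was 1.08 for Cox4i2 and 0.94 for Cox6b2 on the log2 scale, against 0.15 for Cox4i1 and 0.31 for Cox6b1. A8 was thus the lowest unit for Cox4i2 and the highest for Cox6b2. Cox4i2 is also known from pericytes and other vascular cells. The endothelial markers summed to 48.1, 28.3 and 4.07 FPKM in A1, A2 and A8 and to 32.2, 4.75 and 4.05 FPKM in A4, A9 and A10, the mural markers to 105, 107 and 62.7 FPKM and to 89.6, 102 and 136 FPKM, and their part in the Cox4i2 values was not tested.

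**Figure D4:**
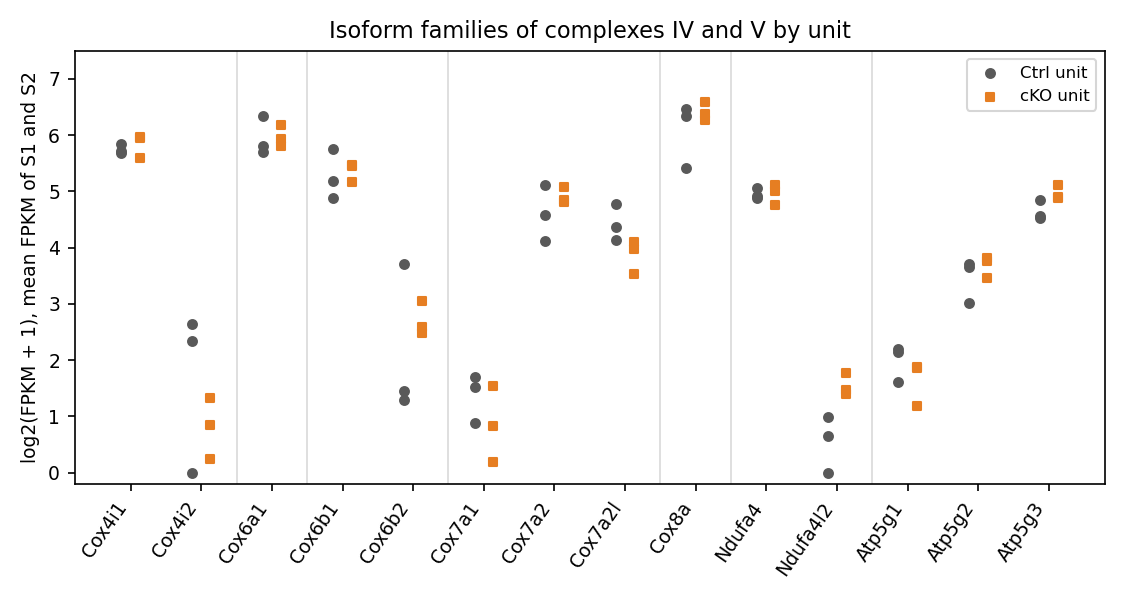
log2(FPKM + 1) of the isoform families of complexes IV and V in each unit (grey circles Ctrl, orange squares cKO; FPKM is the mean of S1 and S2, and grey lines part the families). Cox4i1, Cox6a1 and Cox8a lie above 5 in every unit, whereas Cox4i2 and Cox6b2 spread over more than 2 units of log2 within Ctrl.

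The other subunits of complex IV lay between 15.1 and 25.7 FPKM, apart from Cox7b2 at 1.14 FPKM. Cox7b averaged 25.7, Cox5b 22.9, Cox7c 20.6, Cox6c 17.8 and Cox5a 15.1 FPKM. Cox5b-ps, which carries the sequence of Cox5b in part, averaged 6.80 FPKM, and 8.65% of its windows occur in transcripts of other genes.

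In the ATP synthase, the F1 head stood above the membrane part. The 5 F1 members had a median of 66.4 FPKM and the 13 nuclear members of the Fo part and stalk 20.3 FPKM. Atp5a1 and Atp5b, the subunits alpha and beta of the catalytic hexamer, averaged 93.7 and 83.0 FPKM, and the central stalk subunit Atp5c1 66.4 FPKM. Atp5d and Atp5e, the small subunits of the central stalk, averaged 21.4 and 6.47 FPKM. The 3 genes for the same subunit c of the rotor ring ranked Atp5g3 (27.3 FPKM), Atp5g2 (11.1 FPKM) and Atp5g1 (2.61 FPKM), in that order in every unit. The highest Atp5g1 unit was 3.57 FPKM (A2) and the lowest Atp5g2 unit 7.13 FPKM (A8), so these 2 did not overlap. Of Atp5g2, 33.7% of the windows occur in Gm10175, a separate gene.

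The assembly factors were the lowest group. Ndufaf1 to Ndufaf8 together with Cox5b-ps had a median of 5.08 FPKM and a range of 2.04 to 6.92 FPKM. Ndufaf4 was the steadiest of them, with 6.82, 6.50 and 6.93 FPKM in the Ctrl units and 6.90, 7.29 and 7.09 FPKM in the cKO units. Ndufaf8 was the least steady, with 5.78, 4.15 and 0.29 FPKM in A1, A2 and A8 and 8.37, 3.98 and 3.87 FPKM in A4, A9 and A10.

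Among the nuclear members of 10 to 100 FPKM, variation between units was of the usual size for genes of this level. The mitochondrial and the remaining nuclear members were not set against genes of their own level. The SD of log2(FPKM + 1) over the 6 units had a median of 0.19 over the 13 mitochondrial and 0.24 over the 93 nuclear members. The 61 nuclear members of 10 to 100 FPKM had a median SD of 0.22, and all 3764 tested genes of 10 to 100 FPKM had 0.22.

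Promoters were examined for what the nuclear members share in sequence, as their subunits are made together. Of 92 symbols, 76 had an entry in the RefSeq promoter table (GRCm38.p6, 250 bases before to 50 after the start of the gene). The NRF1 core GCATGCGC was found on either strand in 12 of the 76 (15.8%), against 5.80% of the promoters of protein-coding genes tested and 2.80% of all promoters in the table. The GABPA core CCGGAAG was found in 18 (23.7%, against 18.7% and 9.12%), the YY1 core AAGATGGC in 10 (13.2%, against 4.97% and 2.88%) and the ESRRA core TCAAGGTCA in 2 (2.63%, against 0.237% and 0.407%). The SP1 core GGGCGG was found in 35 (46.1%, against 65.7% and 35.9%). The NRF1 core was in the promoters of Atp5g2, Ndufa6, Ndufa8, Ndufa11, Ndufaf4, Ndufaf5 and Uqcrc1, and together with the GABPA core in those of Atp5k, Atp5l, Cox6a1, Sdhb and Uqcr11. A match describes the letters only.

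In Cox6a1 every match of both cores lies before the start of the gene (in Atp5l 1 GABPA match lies before it and 1 after it), and 172 bases of it are shown, with the NRF1 core (overlapping on both strands) and the GABPA core (on the reverse strand) in capitals. They lie at chr5:115348959-115349130 of GRCm38.p6, minus strand:
Cox6a1: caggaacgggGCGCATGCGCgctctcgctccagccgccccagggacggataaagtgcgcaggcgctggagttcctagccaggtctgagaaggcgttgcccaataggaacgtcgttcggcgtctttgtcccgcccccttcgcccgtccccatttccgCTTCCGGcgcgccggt
Of the factors themselves, Nrf1 (2.99 FPKM), Esrra (6.01), Yy1 (11.2) and Gabpa (13.5) were all measured in these libraries.

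The comparison of genotypes asks whether loss of astroglial TNFR2 goes with another level of the respiratory chain. Of the 106 members, 0 had a limma adjusted p under 0.05 (0% of the 17586 genes tested), with 0.618 as the lowest value. An unadjusted p under 0.05 was found for 3 members, Ndufa4l2, Ndufv3 and Cox7a2l, or 2.83% against 7.69% of all genes, so the share was below the background. The 3 cKO units all lay above the 3 Ctrl units in 4 members (Ndufa12, Ndufa4l2, Atp5g3 and Atp5j; 3.77%, against 5.75% of all genes). They all lay below in 5 members (Ndufv3, Sdha, Sdhc, Uqcrq and Cox7a2l; 4.72%, against 7.22% of all genes). Folds are on the log2(FPKM + 1) scale, which understates low genes.

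Ndufa4l2 (ENSMUSG00000040280, chromosome 10, start 127350836, end 127353023) had 0.99, 0.57 and 0 FPKM in A1, A2 and A8 and 1.65, 2.40 and 1.78 FPKM in A4, A9 and A10. The log2 difference was 0.99 (SE 0.39, limma adjusted p = 0.618). Its cKO units all lay above its Ctrl units, as in 5.75% of all genes. Its libraries did not overlap between genotypes either, but S1 and S2 of an A number are not independent. Its nearest libraries had 1.18 FPKM (S1 of A1, Ctrl) and 1.32 FPKM (S1 of A10, cKO). Its mean over 12 libraries is only just above the minimum, and its Ctrl mean of 0.520 FPKM is below it, so it is a member because of the group in which it is high. At most 79.5 reads of a library fell on it.

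Ndufv3 (ENSMUSG00000024038, chromosome 17, start 31739089, end 31750305), an accessory subunit at the NADH-oxidising tip of complex I, had 10.2, 9.38 and 8.40 FPKM in the Ctrl units and 7.17, 7.48 and 6.24 FPKM in the cKO units. Its log2 difference was -0.38 (SE 0.15, limma adjusted p = 0.621). Cox7a2l (ENSMUSG00000024248, chromosome 17, start 83809347, end 83824759) had 19.6, 16.6 and 26.5 FPKM in the Ctrl units and 16.1, 14.8 and 10.5 FPKM in the cKO units, a log2 difference of -0.56 (SE 0.22, limma adjusted p = 0.626). The groups do not overlap for either gene, and for Cox7a2l the gap between them is 16.6 FPKM in A2 and 16.1 FPKM in A4.

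Among the other members whose units did not overlap, Atp5g3, the highest of the subunit c genes, had 22.1, 27.9 and 22.6 FPKM in the Ctrl units and 28.5, 28.9 and 33.6 FPKM in the cKO units (log2 difference 0.32, SE 0.14, limma adjusted p = 0.658). Atp5j, a subunit of the peripheral stalk, averaged 13.2 ± 1.57 and 15.3 ± 0.316 FPKM over the Ctrl and cKO units (SD, n = 3 each). Ndufa12, an accessory subunit of complex I, averaged 28.4 ± 2.70 and 31.8 ± 0.833 FPKM. On the lower side, Uqcrq averaged 13.4 ± 2.52 and 9.95 ± 0.863 FPKM (limma adjusted p = 0.667). Sdha averaged 55.4 ± 3.74 and 49.7 ± 0.905 FPKM, and Sdhc 16.2 ± 0.601 and 14.3 ± 1.12 FPKM.

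All 13 mitochondrial members had a log2 difference above 0, from 0.04 (mt-Co3) to 0.24 (mt-Nd5), with a median of 0.15. After rescaling each library to a common sum (TPM) 12 of 13 were above 0, the exception being mt-Co3. None passed, and the smallest limma adjusted p among them was 0.840. mt-Nd5, a proton-pumping subunit of complex I, had 3772, 3869 and 4931 FPKM in A1, A2 and A8 and 5140, 4900 and 4694 FPKM in A4, A9 and A10. mt-Nd2 had 5042, 5313 and 7938 FPKM in the Ctrl units and 6722, 7009 and 6533 FPKM in the cKO units, and mt-Nd1 4246, 4112 and 6107 FPKM and 5107, 5497 and 5650 FPKM. In each of these A1 and A2 were the 2 lowest units, and A8 lay within or above the cKO units. These genes are transcribed as joint precursors and share their libraries, so they are not independent observations. Without A8 the median over the 13 was 0.29, and the smallest limma adjusted p of any member was 0.135. In that fit mt-Nd1 and mt-Nd5 had an unadjusted limma p under 0.05, and the share of all genes under it is not given here. Without A1 the median was 0.06.

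Over all 106 members the log2 difference was above 0 in 76 (71.7%), with a median of 0.11, against 49.1% and a median of -0.01 over all genes tested. This split moved with the scaling, to 60.4% of members under TPM rescaling (all genes 41.5%) and 79.2% under upper quartile scaling (all genes 57.7%). By complex, the nuclear members were above 0 in 23 of 37 for complex I, 1 of 4 for complex II, 6 of 8 for complex III, 13 of 17 for complex IV and 13 of 18 for complex V, and in 7 of 9 of the remaining genes. Sdhd, at 0.23, was the exception in complex II, where Sdha, Sdhb and Sdhc had -0.15, -0.24 and -0.17.

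Oligodendrocyte markers moved with the genotype, and their values stand beside this direction. They summed to 2178, 2362 and 1094 FPKM in A1, A2 and A8 and to 313, 447 and 753 FPKM in A4, A9 and A10, and 11 of the 12 had all cKO units below all Ctrl units. With the oligodendrocyte score of each unit as a covariate, the median was -0.11 over the members and 0.06 over all genes tested. Of the 106 members 44 (41.5%) were above 0, against 54.4% of all genes, and 1 of the 13 mitochondrial members was. Among the Ctrl units, A8 had the lowest oligodendrocyte sum and the highest mitochondrial share of reads. The score did not overlap between the genotypes (5.55 to 6.68 in Ctrl and 3.90 to 5.19 in cKO). The fit with the covariate thus cannot tell the score and the genotype apart. The direction given above for the 106 genes did not hold in that fit, and the part of oligodendrocytes in it was not tested.

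**Figure D5:**
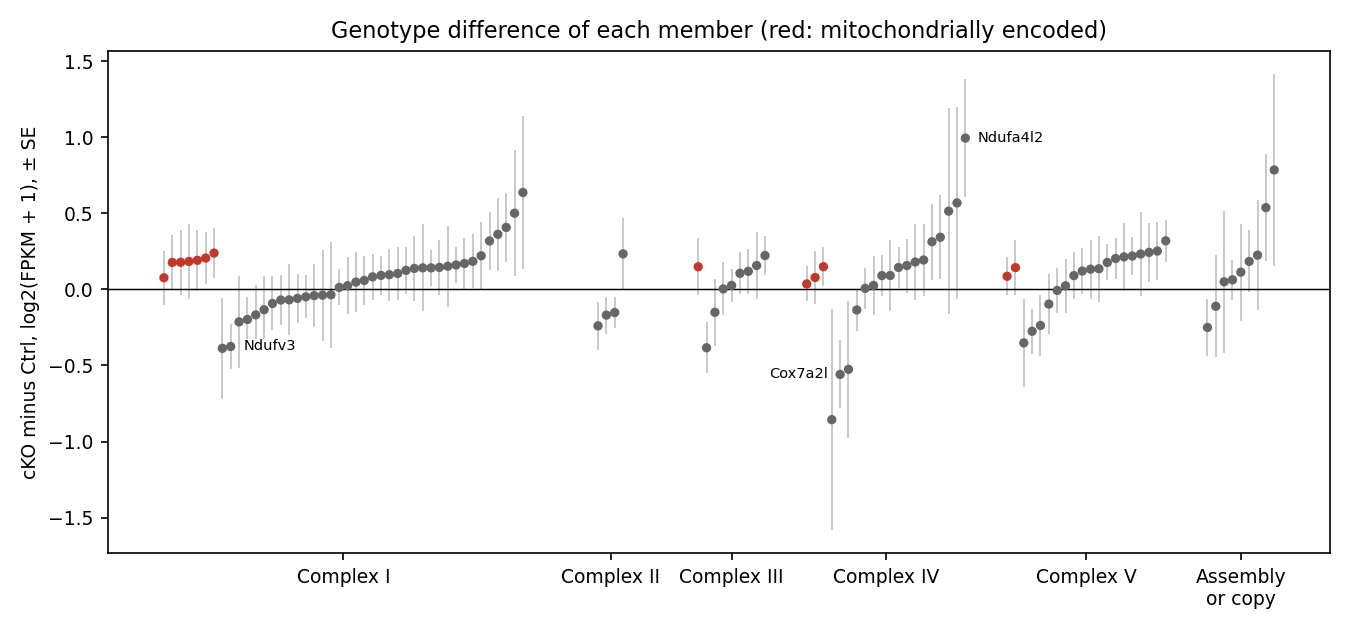
Difference cKO minus Ctrl on the log2(FPKM + 1) scale with its SE (limma, 3 units each) for each of the 106 genes, sorted within complex, with mitochondrially encoded genes in red. The 13 red points lie between 0.04 and 0.24, and Ndufa4l2 (0.99), Ndufv3 (-0.38) and Cox7a2l (-0.56) are the genes with an unadjusted p under 0.05.

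None of the other genes of the pathway had a limma adjusted p under 0.05. Cycs, the electron carrier cytochrome c, averaged 8.09 ± 0.553 and 9.02 ± 0.841 FPKM in the Ctrl and cKO units, and Cyc1, the cytochrome c1 of complex III that the name rule leaves out, 16.3 ± 2.97 and 19.3 ± 4.81 FPKM (SD, n = 3 each). Of 41 further assembly factors, 23 had a log2 difference above 0 and 1 had an unadjusted p under 0.05, Ecsit, which acts in complex I assembly (4.47 ± 0.643 and 6.20 ± 0.405 FPKM). Of 22 genes of mitochondrial transcription, RNA processing and replication, 12 were above 0 and 0 had an unadjusted p under 0.05. Of 7 genes for uncoupling and carriers, 6 were above 0 and 0 had an unadjusted p under 0.05. Over all genes tested, 49.1% were above 0 and 7.69% had an unadjusted p under 0.05. The assembly factors (56.1% above 0) and the transcription and processing genes (54.5%) were nearer to 49.1% than the 106 members (71.7%). The uncoupling and carrier genes (85.7%) and Cycs with Cyc1 (100%) lay above the share of the members.

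Of 8 regulators of mitochondrial gene programmes, 7 were tested, 5 had a log2 difference above 0 (71.4%, against 49.1% of all genes) and 1, Nrf1, had an unadjusted p under 0.05 (7.69% of all genes). Nrf1, a transcription factor for nuclear genes of the respiratory chain, had 2.30, 2.04 and 2.45 FPKM in the Ctrl units and 3.76, 3.31 and 4.08 FPKM in the cKO units (log2 difference 0.53, SE 0.19, limma adjusted p = 0.571); its cKO units all lay above its Ctrl units, as in 5.75% of all genes. Ppargc1a, the coactivator PGC-1alpha, had 20.5, 22.6 and 35.4 FPKM in A1, A2 and A8 and 31.6, 29.4 and 34.0 FPKM in A4, A9 and A10, with A8 the highest of the 6 units. Tfam, which packages and transcribes mitochondrial DNA, averaged 4.43 ± 0.961 and 5.21 ± 0.994 FPKM.

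The level rule left 4 matching genes out. The nearest inside it were Cox7b2 (1.14 FPKM), Ndufa4l2 (1.23) and Cox7a1 (1.30), and outside it Cox8b (0.434), Cox6a2 (0.0422) and Ndufb11b (0.0152), with Cox8c listed at 0 in every library. Cox7b2 had 4.18 FPKM in A4 and at most 1.19 FPKM in any other unit, so its place among the members rests on A4.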

How the data were processed

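The deposited table holds FPKM values per gene and library, with gene length, made by the authors; per the file headers they are FPKM, and value times length in kilobases sums to 1000000 in each library. The submitters' processing notes name STAR, featureCounts, mm10 and GRCm38, without roles or parameters. Of the 51948 identifiers also in GENCODE M21 (GRCm38), 2.77% had the same start and end, although all 13 mitochondrial members did, so the build of the deposited coordinates is uncertain.

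Libraries of the same A number correlated at 0.980 to 0.984 over genes and those of different A numbers at 0.788 to 0.896, so S1 and S2 were averaged on the log2(FPKM + 1) scale; unit FPKM is their mean. Rows with a mean of at least 1 FPKM (17586) were fitted with limma 3.58.1 in R 4.3.3 (lmFit, eBayes with trend, two-sided, Benjamini-Hochberg over all rows, threshold 0.05), Ctrl against cKO, and S2 against S1 with A number blocks. The interaction test on S2 minus S1 was added later. The fits were tested on simulated data. Alternatives were other pseudocounts, filters, scalings, eBayes settings, S1 or S2 alone, the A number as a random effect with or without the replicate block, each A number left out, and an oligodendrocyte covariate. Shared sequence was measured as 125-base windows of GENCODE M21 transcripts; copies were aligned with Biopython 1.88. Depth is the recovered read total, where reads are not independent molecules.

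The members and lists were chosen with earlier results of these data known. Named were the mitochondrial genes, the highest, lowest and 2 smallest-p nuclear genes of each complex, members without overlap of libraries, members past the S2 against S1 threshold, isoform families and genes next to the level minimum; others were named as subunits of a complex or after their values were seen.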

Additional observations from a re-analysis of the deposited data

How the results depend on the processing

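Of the mean difference between mitochondrial and nuclear subunits, complex I moved from 7.09 to 8.07 with medians, 5.29 with summed FPKM, 7.70 without overlapping and opposite-strand genes and 8.35 without the copied genes. Complex III moved to 4.76 with summed FPKM, and its cKO minus Ctrl value to 0.0069 with medians. Complex IV moved to 4.16 with a pseudocount of 0.1, 0.55 with medians, 4.88 with summed FPKM and 9.72 without the copied genes, and complex V to -1.88 with summed FPKM. No value for complex V without the copied genes exists, because none of its mitochondrial genes remains. For the genotype, 0 genes passed except for 112 when the A number was a random effect (consensus correlation 0.915), 80 with the replicate block added to it, and 0 to 1 over the fits that each left out an A number; the cause was not tested, and members among these calls were 0 in each. Rep1 and rep2 in the titles are S1 and S2 and thus do not pair units of the genotypes; across genes, the S2 minus S1 differences of any pair of A numbers had an r of 0.133 to 0.189. The 3 members with an unadjusted p under 0.05 were 1 with S1 alone, 1 with the random effect, 1 without a variance trend, 10 with the oligodendrocyte covariate and 0 to 10 over the fits that left out an A number. The share of all genes under that threshold in these fits is not given here, so the counts cannot be read as particular to the members. For S2 against S1, 243 genes and 8 members became 22 genes and 3 members without the A number block, and 153 to 182 genes and 5 to 7 members with an A number left out; fewer units enter those last fits.

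With the oligodendrocyte covariate the median over the members reversed to -0.11, and so did mt-Nd6 (-0.10), mt-Nd2 (-0.34), mt-Nd1 (-0.14), mt-Nd5 (-0.14), mt-Nd4 (-0.24), mt-Nd3 (-0.27), mt-Nd4l (-0.47), mt-Cytb (-0.24), mt-Co1 (-0.17), mt-Co3 (-0.018), mt-Atp8 (-0.16), mt-Atp6 (-0.12), Ndufc2 (-0.46), Ndufb2 (-0.24), Uqcrfs1 (-0.055), Cox7b2 (-0.45), Ndufaf5 (-0.44), Ndufaf7 (0.022), Atp5o of ENSMUSG00000116933 (-0.58), Cox4i1 (-0.11), Cox4i2 (1.55), Cox6b2 (-1.42), Cox7a1 (0.044) and Ndufa4 (-0.37). In that fit the oligodendrocyte score and the genotype cannot be told apart, and the median over all genes tested was 0.06. TPM rescaling reversed mt-Co3 (-0.038), Ndufaf4 (-0.0033), Cox6a1 (-0.049) and Ndufa4 (-0.068). S1 alone reversed mt-Nd4l (-0.018) and Cox6a1 (-0.044), and S2 alone mt-Co3 (-0.00050) and Ndufa4 (-0.0082). Over the fits that left out an A number, the lowest and highest values were -0.0089 and 0.40 for mt-Nd3, -0.054 and 0.22 for mt-Nd4l, -0.0088 and 0.083 for mt-Co3, -0.0042 and 0.22 for Uqcrfs1, -0.12 and 1.06 for Cox7b2, -0.042 and 0.44 for Ndufaf2, -0.015 and 0.45 for Atp5o of ENSMUSG00000116933, -0.097 and 0.22 for Cox6a1, -0.11 and 0.33 for Cox6b1, -0.067 and 0.11 for Ndufa4 and -0.0080 and 0.34 for Atp5g2. No adjusted p of a member passed in any of these genotype fits. Ndufa4l2, Cox4i2 and Cox7b2 had 0 reads in both libraries of A8, and Cox7b2 had 0 in both of A10 too. A8 was not the shallowest unit, with 19598877 (S1) and 31499015 (S2) reads. The shallowest library, S1 of A2, had 17311872 reads, with Cox4i2 at 4.25 and Cox7b2 at 1.07 FPKM. A8 also had the fewest genes above 0 (21342 in S1 and 21572 in S2). The part of depth in these zeros was not tested.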
